A study of Mus musculus with 9 samples.

Results

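The solute carrier (Slc) genes encode membrane proteins that move ions, metals, sugars, amino acids, nucleotides, vitamins and other small molecules across the plasma membrane and the membranes of organelles. They were taken as every gene symbol that begins with Slc and a digit, with 3 of 152 such symbols left out by the same rule, which gave 149 of the 9277 genes in the table. The 149 genes belong to 43 families and were sorted by the substrate their family is known to carry. The class of the mitochondrial carrier family is an exception and mixes substrates. A class could be named for 130 of the 149 genes, 29 of them in the mitochondrial carrier family. Of the rest, 16 have an uncertain or other substrate, and 3 (Slc4a1ap, Slc7a6os and Slc2a4rg-ps) carry the name but are not transporters. RNA was sequenced from endothelial cells of mouse lung, from Tie1-WT mice (wild type, n = 4 libraries) and Tie1-CR mice, whose endothelial receptor Tie1 resists proteolytic cleavage (n = 5 libraries). The library names of both genotypes carry PBS, a saline vehicle. The labels name neither the age nor the sex of the mice, nor how the cells were isolated. Nothing in the labels ties a library to a mouse of its own, and the p-values therefore reflect the spread between these samples, which may be technical.

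Solute carriers work as uniporters, as cotransporters that couple a substrate to the inward sodium or proton gradient, or as exchangers that trade one substrate for another. Endothelial cells use them to feed their own metabolism and to pass nutrients, metals and ions between blood and tissue. Many respond to nutrient supply: amino acid transporters are induced when amino acids run short, and iron and zinc transporters respond to metal load.

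Values are in CPM, read counts scaled to a common library total, with 38208696 to 54408116 reads behind each library. All 149 Slc genes passed the filter on low values. Their mean level ran from 7.02 to 1037 CPM, and a gene at their median level of 38.3 CPM was covered by 1465 to 2086 reads, for a counting error between 2.19% and 2.61% if reads are independent. Tie1 itself measured 2136 ± 42.9 CPM (SD, n = 4) in Tie1-WT and 2433 ± 143 CPM (SD, n = 5) in Tie1-CR. Every Tie1-CR library lay above every Tie1-WT library, but the log2 difference of 0.19 did not pass (adjusted p = 0.107 with limma). This RNA level does not check whether the protein is cleavable. The 8 endothelial markers were all measured, with a summed level of 13166 to 14602 CPM in the Tie1-WT libraries and 14068 to 14925 CPM in Tie1-CR. Of these markers 1 passed, the endothelial transcription factor gene Erg, which fell to 37.5 ± 1.77 CPM from 50.3 ± 3.61 CPM (limma adjusted p = 0.0052), and its groups did not overlap. Type 2 pneumocyte markers (6 of 8 measured) summed to 279 to 626 CPM against 436 to 789 CPM, and airway markers (4 of 5 measured) to 12.5 to 38.2 CPM against 48.0 to 81.4 CPM. Of these Sftpd, Cbr2 and Cyp2f2 passed, all higher (limma adjusted p = 0.044, 0.0232 and 0.0428), while the airway marker Scgb1a1 did not (limma adjusted p = 0.966). Type 1 pneumocyte markers summed to 170 to 289 CPM against 158 to 235 CPM. Fibroblast and mural markers summed to 14.3 to 49.7 CPM against 10.3 to 52.2 CPM, and platelet markers to 24.3 to 90.9 CPM against 62.4 to 89.7 CPM. None of these last 3 lists held a call. In such bulk samples, fewer cells of a type and less RNA per cell cannot be told apart.

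In Tie1-CR, 3 Slc genes rose and 5 fell past a Benjamini-Hochberg adjusted p of 0.05 (limma on log2(CPM + 1), all genes). The zinc importer gene Slc39a6, the potassium-chloride cotransporter gene Slc12a4 and the anion exchanger gene Slc4a2 rose by 0.21 to 0.26 on the log2 scale. The iron exporter gene Slc40a1, the monocarboxylate transporter family gene Slc16a11, the amino acid transporter gene Slc38a2 and the myo-inositol transporter gene Slc5a3 fell by 0.58 to 0.72, and the mitochondrial ADP/ATP carrier gene Slc25a5 fell by 0.26. The 8 calls are 5.37% of the Slc genes, against 4.05% of all genes. By direction they are 3 of 149 against a background of 1.28% of all genes higher, and 5 of 149 against 2.77% lower. With the values as deposited these shares lie near the background, and they are not a result about Slc genes as a set. With TMM scaling 6 Slc genes rose and 4 fell, beside 182 higher and 190 lower of all 9277 genes. With quantile normalization 9 of the 149 rose and 4 fell, beside 183 higher and 190 lower of all 9277 genes. Under both scalings a larger share of Slc genes than of all genes rose, and the set was not tested. Without Tie1-WT replicate 1, 0 of the 149 passed in either direction, against 0.65% of all genes. Without Tie1-WT replicate 2 Slc40a1 alone passed, against 1.46% of all genes.

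**Figure D1:**
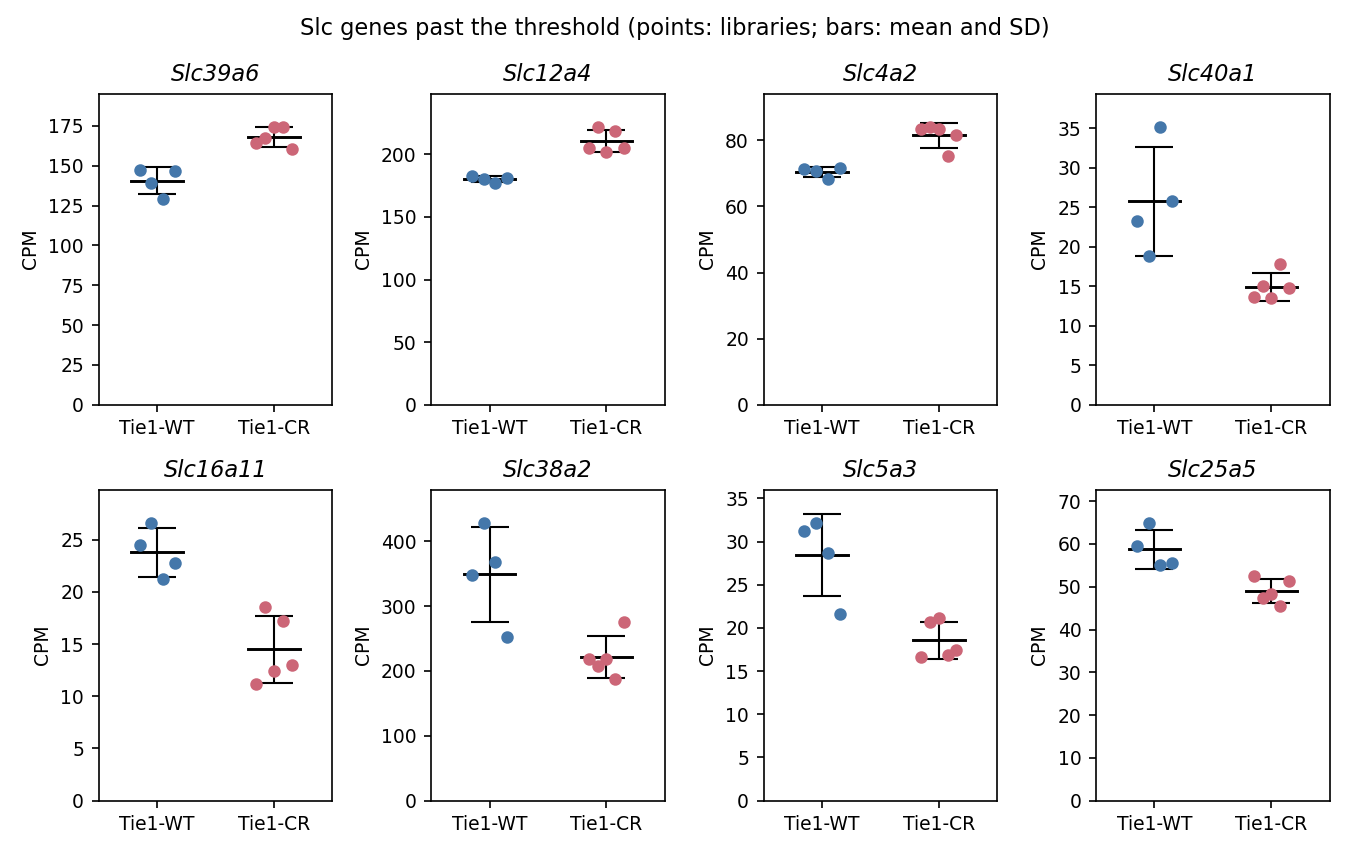
Level in CPM (vertical axes, from 0) of the 8 Slc genes past the threshold, by genotype. Points are libraries, horizontal lines means and bars SD, with n = 4 in Tie1-WT and n = 5 in Tie1-CR. The groups do not overlap for 7 of the 8, while Slc38a2 in Tie1-WT replicate 4 (252 CPM) lies below Tie1-CR replicate 5 (275 CPM).

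Sequences upstream of the start site are shown for 3 genes past the threshold, 1 that fell (Slc38a2) and 2 that rose (Slc12a4 and Slc4a2), because short response elements for amino acid, metal and growth signals are looked for in such windows. Each is the 250 bases before a RefSeq start in GRCm38.p6, 5′ to 3′ on the gene's strand: chr15:96699729-96699978 on the minus strand for Slc38a2, chr8:105966116-105966365 on the minus strand for Slc12a4 and chr5:24424982-24425231 on the plus strand for Slc4a2. Capitals mark matches to TGCNCNC, a loose form of the metal response element core TGCRCNC (R is A or G), in Slc12a4. In Slc4a2 they mark the Egr motif. Of the stretches marked in Slc12a4, only GAGCGCA also fits the narrower core, read on the opposite strand. Slc4a2 has a second RefSeq window, chr5:24425594-24425843, which is not shown and holds no Egr match. Both of its windows lie inside the gene span given below.
Slc38a2: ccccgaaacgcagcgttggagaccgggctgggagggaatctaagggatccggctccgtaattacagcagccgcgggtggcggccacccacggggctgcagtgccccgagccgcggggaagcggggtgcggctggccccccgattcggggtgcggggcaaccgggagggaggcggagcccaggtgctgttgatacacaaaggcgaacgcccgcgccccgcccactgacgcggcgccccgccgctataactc
Slc12a4: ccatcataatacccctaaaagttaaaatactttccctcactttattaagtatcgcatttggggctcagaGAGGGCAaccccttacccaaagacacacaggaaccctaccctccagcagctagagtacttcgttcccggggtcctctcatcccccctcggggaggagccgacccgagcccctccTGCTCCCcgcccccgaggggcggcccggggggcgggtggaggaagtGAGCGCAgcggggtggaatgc
Slc4a2: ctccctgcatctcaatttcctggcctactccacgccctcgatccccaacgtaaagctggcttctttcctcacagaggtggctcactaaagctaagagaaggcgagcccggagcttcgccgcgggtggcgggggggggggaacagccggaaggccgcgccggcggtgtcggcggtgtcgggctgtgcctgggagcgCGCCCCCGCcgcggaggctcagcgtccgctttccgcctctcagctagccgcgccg

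A RefSeq window of 250 bases before and 50 after the start was matched for 112 of the 149 genes, and 5 motifs were looked for on both strands. Of the 8 called genes 6 were searched, and Slc39a6 and Slc40a1 were not. The loose form TGCNCNC of the metal response element core was present for 66.1% of these Slc genes and 53.6% of the 27025 genes with such a window. Among the 6 called genes searched it was present for Slc12a4, Slc16a11, Slc4a2 and Slc5a3. Matches to the narrower core TGCRCNC were not counted. The Egr motif GCGGGGGCG was present for 6.25% and 3.31%, and among the 6 for Slc4a2, in the window shown and not in its second one. The ATF4 composite element core TGATGNAA was present for 2.68% and 4.51%, the AP-1 motif TGANTCA for 5.36% and 8.97%, and the cAMP response element TGACGTCA for 2.68% and 2.03%, with none of the 6 among them. A match is a description of letters in a window, not a binding site, and a window without one says nothing of the factor.

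Of 20 metal transporter genes 1 was called higher and 1 lower, 10% against 4.05% of all genes. Smaller classes with 1 call each had larger shares: monocarboxylates 25% of 4 genes, anions 16.7% of 6 and organic ions 11.1% of 9. No class was tested as a set. Slc39a6 (chromosome 18, 24579881 to 24603817 in GRCm38), which encodes the zinc importer ZIP6, measured 147, 139, 129 and 147 CPM in the Tie1-WT libraries and 164, 167, 174, 174 and 160.4 CPM in Tie1-CR. Every Tie1-CR library lay above every Tie1-WT library, and the lowest of the 9 was Tie1-WT replicate 3. The mean rose to 168 ± 6.12 CPM (SD, n = 5), from 141 ± 8.41 CPM in Tie1-WT (SD, n = 4), a log2 difference of 0.26 ± 0.05 (SE; limma adjusted p = 0.0231). The call ended when any of Tie1-WT replicates 1, 2 and 3 was left out, or Tie1-CR replicate 4 (limma adjusted p 0.0532 to 0.0706).

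Slc40a1 (chromosome 1, 45908068 to 45926523) encodes ferroportin, the exporter of cellular iron. It measured 23.2, 18.8, 35.2 and 25.8 CPM in the Tie1-WT libraries and 13.6, 15.0, 13.4, 17.8 and 14.7 CPM in Tie1-CR. The genotypes did not overlap, and Tie1-WT replicate 3 stood highest. The mean fell to 14.9 ± 1.74 CPM (SD, n = 5), from 25.7 ± 6.92 CPM in Tie1-WT (SD, n = 4), 1.73-fold, a log2 difference of -0.72 ± 0.15 (SE; limma adjusted p = 0.0241). Leaving out Tie1-WT replicate 1 ended the call (limma adjusted p = 0.0677). Ferroportin is also abundant in macrophages. Of 8 macrophage markers, 2 were measured: Cd68 fell to 5.30 ± 1.05 CPM from 10.7 ± 1.30 CPM (limma adjusted p = 0.0064), and Lyz2, which type 2 pneumocytes also express, measured 37.8 ± 21.8 and 76.2 ± 21.9 CPM (limma adjusted p = 0.0669). Their sum, most of it Lyz2, was 30.6 to 76.9 CPM in the Tie1-WT libraries and 60.2 to 118 CPM in Tie1-CR. Cd68 went the other way, with groups that did not overlap. The part of macrophage RNA in the Slc40a1 difference was not tested.

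The remaining metal transporters stayed short of the threshold. Slc39a14, which encodes the zinc, iron and manganese importer ZIP14, was nearest to it, at 50.1, 49.1, 51.8 and 51.7 CPM in the Tie1-WT libraries and 55.2, 55.4, 56.9, 57.8 and 58.0 CPM in Tie1-CR. Its groups did not overlap, and the log2 difference of 0.16 had a limma adjusted p of 0.0573. It passed with TMM scaling (adjusted p = 0.0307) and quantile normalization (adjusted p = 0.0247). Slc30a1, the plasma membrane zinc exporter gene, measured 88.8 ± 7.13 CPM in the Tie1-WT libraries and 95.1 ± 5.17 CPM in Tie1-CR (adjusted p = 0.364 with limma), with overlapping groups. Of the zinc families, 6 of 8 Slc39 importer genes were above 0 in the difference (7 of 8 with TMM scaling or quantile normalization), and 2 of 6 Slc30 genes, which move zinc out of the cytosol (3 of 6 under both). Of 7 measured genes of a list of metal-responsive genes, Ftl1, a ferritin light chain gene, fell to 14.5 ± 1.56 CPM from 20.6 ± 1.82 CPM (limma adjusted p = 0.0151), and no other passed. The ferritin heavy chain gene Fth1 is not analysed here, and whether Ftl1 reads were lost in mapping or counting was not tested.

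Among carriers of monovalent ions, protons and calcium, 1 of 12 genes passed. Slc12a4 (chromosome 8, 105943590 to 105966097) encodes KCC1, a potassium-chloride cotransporter that acts in cell volume control. Its level was 183, 180.3, 178 and 181 CPM in the Tie1-WT libraries and 205, 222, 202, 219 and 205 CPM in Tie1-CR. The 4 Tie1-WT libraries lay close together and all below the Tie1-CR libraries. The mean rose to 211 ± 9.06 CPM (SD, n = 5), from 180.4 ± 2.17 CPM in Tie1-WT (SD, n = 4), a log2 difference of 0.22 ± 0.04 (SE; limma adjusted p = 0.0231). Omitting any of Tie1-WT replicates 1, 2 and 3, or Tie1-CR replicate 4, ended the call (limma adjusted p 0.0533 to 0.0769). An antisense gene, Gm16156, covers 8.44% of its exon bases, and without strand information in the sources used here their reads cannot be told apart. Slc12a2, which encodes the sodium-potassium-chloride cotransporter NKCC1, measured 43.7 ± 5.70 and 43.4 ± 2.05 CPM (limma adjusted p = 0.991), and its groups overlapped.

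Anion exchangers gave 1 call among 6 genes. Slc4a2 (chromosome 5, 24423837 to 24440950), which encodes the chloride-bicarbonate exchanger AE2, measured 71.4, 70.7, 68.2 and 71.6 CPM in the Tie1-WT libraries and 83.4, 84.1, 83.4, 75.1 and 81.5 CPM in Tie1-CR. Tie1-CR replicate 4 was the lowest of its group and still above every Tie1-WT library. The mean rose to 81.5 ± 3.69 CPM (SD, n = 5), from 70.5 ± 1.55 CPM in Tie1-WT (SD, n = 4), a log2 difference of 0.21 ± 0.05 (SE; limma adjusted p = 0.0348). The call held when Tie1-CR replicate 4 was left out and ended without each of the other libraries (limma adjusted p 0.0523 to 0.105), and the opposite-strand gene Fastk shares 13.7% of its exon bases. Slc26a11, a sulfate transporter family gene, had the smallest p among the other anion carriers, at 43.8 ± 1.27 and 47.7 ± 3.55 CPM (limma adjusted p = 0.251), and its groups overlapped.

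The amino acid and peptide transporters gave 1 fall among 14 genes. Slc38a2 (chromosome 15, 96687392 to 96699730), which encodes the sodium-coupled neutral amino acid importer SNAT2, measured 348, 428, 367 and 252 CPM in Tie1-WT. In Tie1-CR it measured 218, 208, 219, 188 and 275 CPM. Tie1-WT replicate 4 fell within the Tie1-CR range, so the groups overlapped. The mean fell to 221 ± 32.4 CPM (SD, n = 5), from 349 ± 73.1 CPM in Tie1-WT (SD, n = 4), 1.58-fold, a log2 difference of -0.64 ± 0.14 (SE; limma adjusted p = 0.0324). The call held when Tie1-WT replicate 4 or Tie1-CR replicate 5 was left out and ended without each other library (limma adjusted p 0.0523 to 0.105). Slc38a2 is known as a target of the transcription factor ATF4 when amino acids are scarce. Atf4 fell to 185 ± 29.8 CPM from 270.1 ± 25.8 CPM (limma adjusted p = 0.0231), the only call among 19 measured genes of a list of ATF4 response genes. Their median log2 difference was -0.05 against -0.03 over all genes, with 6 above 0 and 13 below. Whether Atf4 has a part in the Slc38a2 difference was not tested.

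Slc3a2, which encodes the heavy chain CD98 that brings amino acid exchangers to the plasma membrane, had the highest level of the Slc genes per kilobase of exon, at 242 CPM per kilobase. It measured 731, 732, 912 and 684 CPM in the Tie1-WT libraries and 1005, 953, 829.6, 858 and 991 CPM in Tie1-CR. Tie1-WT replicate 3 lay within the Tie1-CR range, and the log2 difference of 0.28 did not pass (limma adjusted p = 0.0977). Without that library it did (limma adjusted p = 0.042, log2 difference 0.37), in 1 of 9 fits with a library left out. The rest did not pass (limma adjusted p 0.0868 to 0.231). The cationic amino acid transporter gene Slc7a1 measured 17.1 ± 2.39 and 14.7 ± 1.29 CPM (limma adjusted p = 0.253), with overlapping groups. The light chain genes Slc7a5 and Slc7a11, which pair with Slc3a2, are not analysed here.

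The monocarboxylate class held 4 genes, of which 1 fell. Slc16a11 (chromosome 11, 70212752 to 70216417), of the proton-coupled monocarboxylate transporter family, measured 24.5, 26.6, 21.3 and 22.7 CPM in the Tie1-WT libraries and 11.1, 18.6, 12.4, 17.2 and 13.0 CPM in Tie1-CR. The groups did not overlap, and Tie1-CR replicates 2 and 4 were the nearest to Tie1-WT. The mean fell to 14.5 ± 3.22 CPM (SD, n = 5), from 23.8 ± 2.31 CPM in Tie1-WT (SD, n = 4), 1.64-fold, a log2 difference of -0.70 ± 0.14 (SE; limma adjusted p = 0.0206). Without Tie1-WT replicate 1 or 2 the limma adjusted p was 0.0768 or 0.0679. Its neighbour Slc16a13 (70216789 to 70221064 on the same chromosome), named after its values were seen, measured 38.2 ± 2.59 and 36.9 ± 1.94 CPM (limma adjusted p = 0.659). Slc16a9, the gene of the class with the highest level per exon kilobase (109 CPM), measured 443 ± 39.7 and 405 ± 23.5 CPM (limma adjusted p = 0.298), with overlapping groups.

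Carriers of organic ions, bile acids, amines and osmolytes gave 1 fall among 9 genes. Slc5a3 (chromosome 16, 92058322 to 92087473) encodes the sodium/myo-inositol cotransporter SMIT1, which takes up an osmolyte and signalling precursor. It measured 31.2, 32.2, 28.6 and 21.6 CPM in the Tie1-WT libraries and 16.7, 20.7, 21.1, 16.9 and 17.4 CPM in Tie1-CR. The groups did not overlap, by a narrow margin between Tie1-WT replicate 4 and Tie1-CR replicate 3. The mean fell to 18.6 ± 2.16 CPM (SD, n = 5), from 28.4 ± 4.75 CPM in Tie1-WT (SD, n = 4), 1.53-fold, a log2 difference of -0.58 ± 0.12 (SE; limma adjusted p = 0.0231). Leaving out any of Tie1-WT replicates 1, 2 and 3, or Tie1-CR replicate 4, ended the call (limma adjusted p 0.0532 to 0.0885), and 159 of its exon bases (1.46%) are shared with Mrps6 on the same strand.

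In the same class, Slc10a1, the bile acid transporter gene, measured 21.1, 19.7, 20.1 and 17.7 CPM in the Tie1-WT libraries and 8.99, 18.8, 10.4, 15.2 and 11.9 CPM in Tie1-CR. Tie1-CR replicate 2 lay within the Tie1-WT range, and the log2 difference of -0.60 did not pass (limma adjusted p = 0.0719). Without that library it did (limma adjusted p = 0.0171), in 1 of 9 fits with a library left out. The rest did not pass (limma adjusted p 0.0867 to 0.182). The taurine transporter gene Slc6a6 varied more in Tie1-CR, from 199 to 439.7 CPM, than in Tie1-WT, from 228 to 287 CPM (limma adjusted p of the difference in means 0.495; the difference in spread was not tested).

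The mitochondrial carrier family, which moves nucleotides, phosphate and metabolites across the inner mitochondrial membrane, was the class with the most members. Of 29 genes 1 fell, 15 were above 0 and 14 below, with a median of 0.00. With TMM scaling none of the 29 passed, and with quantile normalization 0 fell and 2 rose, Slc25a10 (limma adjusted p = 0.038) and Slc25a22 (limma adjusted p = 0.0489), both named after their values were seen. Slc25a5 (chromosome X, 36795651 to 36798807), which encodes the ADP/ATP carrier ANT2, measured 59.6, 64.9, 55.1 and 55.5 CPM in the Tie1-WT libraries and 52.4, 47.3, 48.3, 45.6 and 51.4 CPM in Tie1-CR. The groups did not overlap. The mean fell to 49.0 ± 2.86 CPM (SD, n = 5), from 58.8 ± 4.57 CPM in Tie1-WT (SD, n = 4), a log2 difference of -0.26 ± 0.06 (SE; limma adjusted p = 0.0438). The call ended with TMM scaling (limma adjusted p = 0.0728), with quantile normalization (adjusted p = 0.0742), and without each library except Tie1-WT replicate 4 and Tie1-CR replicate 1 (adjusted p 0.0573 to 0.134). A pseudogene named after Slc25a5 is annotated, and whether reads are shared between them was not tested.

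Slc25a4, the paralog of Slc25a5 that encodes ANT1, measured 157, 156, 156 and 168 CPM in the Tie1-WT libraries and 162, 141, 138, 149 and 152 CPM in Tie1-CR (adjusted p = 0.277 with limma), with overlapping groups. Slc25a25, a calcium-regulated ATP-magnesium/phosphate carrier gene on chromosome 2 (32414487 to 32451445), had the largest negative difference of the 149. Its level was 96.1, 126, 114 and 58.2 CPM in the Tie1-WT libraries and 60.0, 42.1, 58.2, 45.5 and 75.5 CPM in Tie1-CR. Tie1-WT replicate 4 lay within the Tie1-CR range, and the log2 difference of -0.77 ± 0.22 (SE) did not pass (limma adjusted p = 0.070). Without that library the difference was -1.01 and passed (limma adjusted p = 0.0111), in 1 of 9 fits with a library left out. The rest did not pass (limma adjusted p 0.0539 to 0.172). Slc25a3, the phosphate carrier gene, and Slc25a12, an aspartate/glutamate carrier gene, both named after their values were seen, had groups that did not overlap, lower in Tie1-CR, with limma adjusted p of 0.129 and 0.11.

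**Figure D2:**
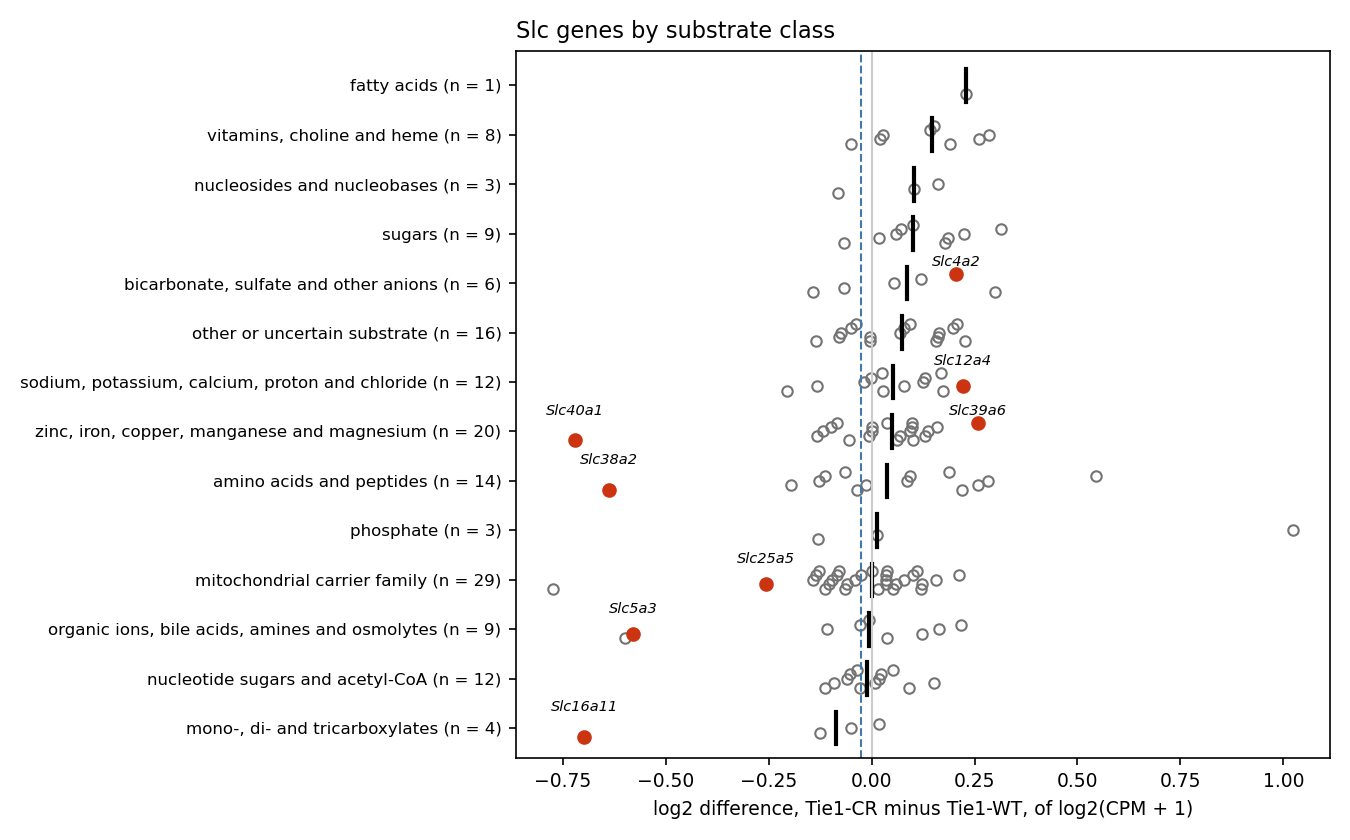
Log2 difference (horizontal axis, Tie1-CR minus Tie1-WT, of log2(CPM + 1)) of 146 Slc genes, by substrate class (vertical axis, with the number of genes). Open points are genes that did not pass, red points the 8 that did, black bars class medians and the dashed line the median of all genes (-0.03). Most points lie within 0.25 of 0, and the falls of Slc40a1, Slc16a11, Slc38a2 and Slc5a3 lie apart to the left, beside Slc25a25 and Slc10a1, which did not pass.

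The other classes held no call. Among 9 sugar transporter genes 8 were above 0 (median log2 difference 0.10) and among 8 carriers of vitamins, choline and heme 7 were (median 0.15), against 41.5% of all genes and 59.1% of Slc genes. Both counts were the same with TMM scaling and quantile normalization, while the shares above 0 moved up to 49.6% and 50.8% of all genes and to 64.4% and 69.1% of Slc genes. The glucose transporter genes Slc2a1 and Slc2a3 measured 18.1 ± 2.73 and 20.8 ± 3.79 CPM, and 7.89 ± 3.24 and 9.65 ± 2.26 CPM, in Tie1-WT and Tie1-CR (limma adjusted p = 0.418 and 0.469). Slc50a1, a sugar efflux transporter gene of high level per exon kilobase (102 CPM), measured 137 ± 14.1 and 159.9 ± 11.1 CPM (limma adjusted p = 0.108). It passed without Tie1-WT replicate 4 (limma adjusted p = 0.0493), in 1 of 9 fits with a library left out. The rest did not pass (limma adjusted p 0.0782 to 0.241). Slc23a2, an ascorbate transporter gene, measured 166, 177, 190.2 and 171 CPM in the Tie1-WT libraries and 203, 191, 207, 205 and 200.2 CPM in Tie1-CR. Its groups did not overlap (limma adjusted p = 0.0589), and it passed with TMM scaling (limma adjusted p = 0.040).

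The equilibrative nucleoside transporter genes Slc29a1 and Slc29a3 measured 218 ± 25.5 and 205 ± 13.5 CPM, and 35.7 ± 2.53 and 40.0 ± 2.90 CPM (limma adjusted p = 0.559 and 0.181). Slc43a3, a purine nucleobase transporter gene, was the second highest Slc gene per exon kilobase (232 CPM), at 997 ± 82.7 CPM in the Tie1-WT libraries and 1069 ± 71.6 CPM in Tie1-CR (adjusted p = 0.421 with limma). The choline transporter gene Slc44a2 measured 364 ± 11.7 and 404 ± 22.7 CPM (limma adjusted p = 0.121). The fatty acid transporter gene Slc27a4 measured 24.1, 30.2, 29.7 and 29.6 CPM in the Tie1-WT libraries and 35.4, 30.3, 35.2, 30.4 and 35.7 CPM in Tie1-CR. Its groups did not overlap, but Tie1-WT replicate 2 and Tie1-CR replicate 2 nearly met, and the difference did not pass (limma adjusted p = 0.126). The nucleotide sugar transporters of the Golgi and endoplasmic reticulum were even, with 6 of 12 above 0. Slc35c2 had the smallest p of them, at 22.9 ± 3.12 and 25.4 ± 1.75 CPM (limma adjusted p = 0.333).

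**Figure D3:**
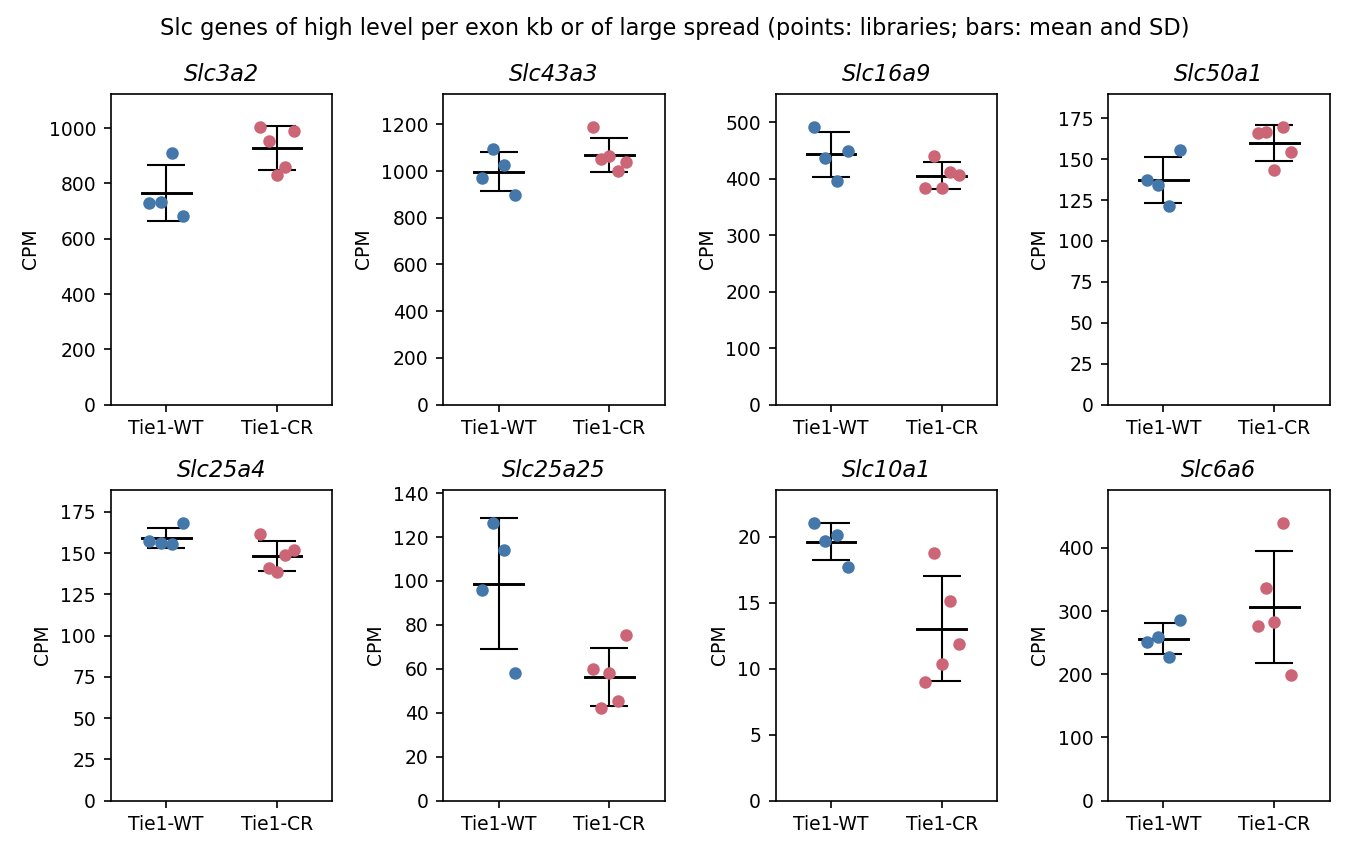
Level in CPM (vertical axes, from 0) of 8 Slc genes that did not pass, chosen for a high level per exon kilobase (Slc3a2, Slc43a3, Slc16a9, Slc50a1 and Slc25a4) or, after their values were seen, for a large difference or spread (Slc25a25, Slc10a1 and Slc6a6). Points are libraries, lines means and bars SD (n = 4 and n = 5). The genotypes overlap in each panel.

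The genotypes did not overlap for 17 of the 149 genes (11.4%), against 10.5% of all genes. Of the 149 genes 11 were higher in Tie1-CR, a larger share than the background of 3.74%. Another 6 were lower, a smaller share than the background of 6.74%. The set was not tested, and these shares were not computed under the other scalings. An unadjusted limma p under 0.05 was found for 24.2% of Slc genes and 22.3% of all genes. The median log2 difference was 0.03 against -0.03 over all genes, and its size without sign was 0.10 against 0.09. With TMM scaling these medians were 0.06 and 0.00, and with quantile normalization 0.07 and 0.00. For comparison, of 32 measured solute carriers without an Slc symbol and of 22 ABC transporters, which pump substrates with ATP, 0 passed, with medians of 0.03 and 0.02. At an unadjusted limma p under 0.05 there were 9 of the former and 3 of the latter.

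**Figure D4:**
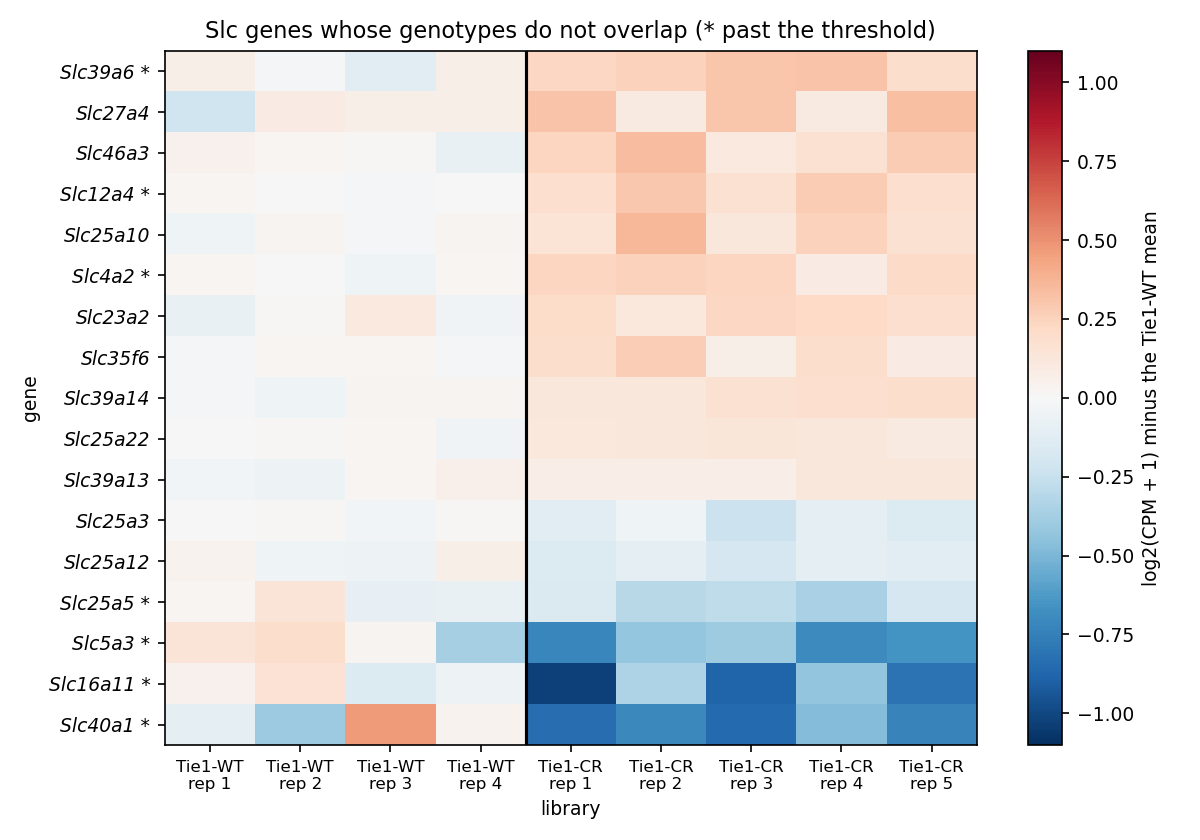
The 17 Slc genes whose genotypes do not overlap (vertical axis) in each library (horizontal axis), as log2(CPM + 1) minus the Tie1-WT mean. Stars mark those past the threshold. The 11 genes higher in Tie1-CR are pale, while Slc5a3, Slc16a11 and Slc40a1 at the bottom are the darkest.

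Slc34a2, the sodium-phosphate cotransporter gene known from type 2 pneumocytes, had the largest positive difference of the 149. It lies on chromosome 5 (53038081 to 53071664) and measured 5.14, 12.1, 5.32 and 20.5 CPM in the Tie1-WT libraries and 11.6, 21.0, 22.8, 17.0 and 31.6 CPM in Tie1-CR. The groups overlapped, with Tie1-WT replicate 4 among the high Tie1-CR libraries, and the log2 difference of 1.02 ± 0.37 (SE) did not pass (limma adjusted p = 0.128). Without Tie1-WT replicate 4 it passed (limma adjusted p = 0.0367, log2 difference 1.38). That was 1 of 9 fits with a library left out, and the rest did not pass (limma adjusted p 0.0912 to 0.322). The summed level of the 5 other measured type 2 markers was 275, 404, 274 and 606 CPM in the Tie1-WT libraries and 425, 559, 604, 544 and 758 CPM in Tie1-CR. Libraries with more of these markers had more Slc34a2 in both genotypes, apart from the nearly equal Tie1-WT replicates 1 and 3, and the part of type 2 cell RNA in the difference was not tested. The ubiquitous phosphate transporter gene Slc20a1 measured 44.3 ± 3.34 and 40.3 ± 2.44 CPM (limma adjusted p = 0.246), with overlapping groups.

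**Figure D5:**
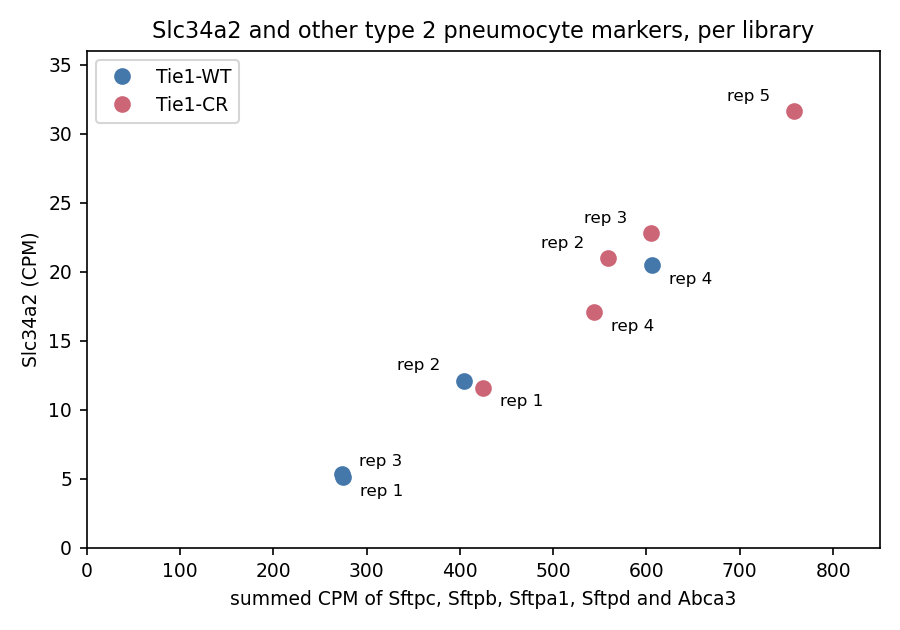
Slc34a2 (vertical axis, CPM) against the summed CPM of Sftpc, Sftpb, Sftpa1, Sftpd and Abca3 (horizontal axis), with 1 point per library. Tie1-WT replicates 1 and 3 lie lowest on both axes, near 5 CPM of Slc34a2, and Tie1-CR replicate 5 highest, at 31.6 CPM.

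Slc46a3, a lysosomal transporter gene, had the smallest p in the class of uncertain substrates, at 19.8, 19.3, 19.2 and 17.9 CPM in the Tie1-WT libraries and 22.6, 24.3, 20.6, 21.5 and 23.4 CPM in Tie1-CR. The groups did not overlap, and the log2 difference of 0.23 had a limma adjusted p of 0.0636. It passed with TMM scaling (adjusted p = 0.0411) and quantile normalization (adjusted p = 0.0299). Slc2a4rg-ps, a pseudogene named after a regulator of a glucose transporter gene, measured 11.3 ± 0.928 and 13.5 ± 0.973 CPM (limma adjusted p = 0.111), and passed with quantile normalization (adjusted p = 0.0451). The lowest value of any Slc gene was that of the peptide transporter gene Slc15a2, named after its values were seen, in Tie1-WT replicate 2, at 0.349 CPM or 14 reads.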

How the data were processed

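Per the labels' protocols, a PicoPure kit was used to isolate RNA and SMARTer Ultra Low reagents, which amplify cDNA, to build libraries. Per the submitters' processing notes, STAR 2.7 and the builds GRCm38.p6 and mm10 were used. How genes were counted, on which annotation and after which filter is not given in the sources used here. The deposited table is called TPM by the authors, but its values are CPM: 100% of the values of a library are multiples, within 0.01 reads, of what 1 read is worth there. Between 98.3% and 98.6% of these reads belong to the listed genes. No listed gene stays below 10.0 CPM everywhere, and genes of lower level cannot be assessed.

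Values were used as log2(CPM + 1), which understates changes of low genes, after a filter (1 CPM or more in 4 or more libraries) that removed 0 genes. All genes were fitted with limma 3.58.1 in R 4.3.3 (empirical Bayes with a trend, two-sided tests), and p-values were adjusted by Benjamini-Hochberg over 9277 genes and a threshold of 0.05. Differences are Tie1-CR minus Tie1-WT. A log-scale test had been chosen on the assumption of TPM and also suits CPM. The fit was tested on simulated data. Other settings tried were 2 pseudocounts, 2 filters, TMM scaling (trimming 30% of log ratios and 5% of log levels at each end), quantile normalization, robust empirical Bayes, a replicate block and each library left out.

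Positions and exon lengths are those of GENCODE for GRCm38 (9048 genes matched by symbol), and promoter windows those of RefSeq (GRCm38.p6). Because CPM ignores transcript length, levels of different genes are compared per kilobase of exon. Substrate classes were assigned by family, with exceptions by gene, from general knowledge. The named genes are those past the threshold, the gene with the smallest p in each class that did not pass, those of a panel of endothelial transporters (17 of 24 measured), the 5 with the highest level per exon kilobase, the largest differences, and markers of other cell types. Not every gene that these criteria select is reported here. The members and lists were chosen with earlier results of these data known. Figures used matplotlib 3.10.9 and Python 3.11.15.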

Additional observations from a re-analysis of the deposited data

Results flagged for a closer look

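In 5 of 68 groups looked at (34 named genes, 2 genotypes), a single library stood far from the others of its genotype; chance gives about 1 in 20 groups. Slc12a2 measured 52.2 CPM in Tie1-WT replicate 1 and 40.1 to 41.3 CPM in the others. Slc25a4 measured 168 CPM in Tie1-WT replicate 4 and 156 to 157 CPM in the others. Slc27a4 measured 24.1 CPM in Tie1-WT replicate 1 and 29.6 to 30.2 CPM in the others. Slc2a4rg-ps measured 11.8 CPM in Tie1-CR replicate 3 and 13.5 to 14.2 CPM in the others. Slc4a2 measured 75.1 CPM in Tie1-CR replicate 4 and 81.5 to 84.1 CPM in the others.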

How the results depend on the processing

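The 8 calls were the same genes with a pseudocount of 0.1 or 5, without the filter, with a minimum mean of 10 CPM and with robust empirical Bayes. The count of Slc genes higher was 3 as reported, 6 with TMM scaling, 9 with quantile normalization, 0 with the replicate block, and 0 to 4 with a library left out. The count lower was 5 as reported, 4 with the replicate block, and 0 to 6 with a library left out. Over all genes 119 were higher and 257 lower as reported, 182 and 190 with TMM scaling, and 183 and 190 with quantile normalization. With the replicate block 183 of all genes passed in either direction. The median log2 difference was 0.03 as reported, 0.056 with TMM scaling, 0.069 with quantile normalization and 0.014 to 0.043 with a library left out. Fits without a library have fewer samples, and over all genes 60 passed without Tie1-WT replicate 1, against 376. The cause of the other changes was not tested. Slc12a2, near 0 throughout, changed sign: 0.023 with TMM scaling, 0.033 with quantile normalization, 0.024 with the replicate block, and -0.040 to 0.084 with a library left out (above 0 without Tie1-WT replicate 1, Tie1-CR replicate 1 or Tie1-CR replicate 5). Of 577 values of named genes under the alternatives, 515 kept their direction and side of the threshold, 44 fell short of it, 12 newly passed it and 6 reversed.

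The replicate numbers do not pair the samples: the labels give no shared source, and the deviations of same-numbered libraries correlated at -0.14, 0.00, -0.06 and 0.19, with 1 of 4 Tie1-WT libraries correlating best with its own number. With the replicate block, in which Tie1-CR replicate 5 has no partner and does not contribute, Slc16a11, Slc38a2, Slc5a3 and Slc25a25 (adjusted p = 0.0406) passed. Tests on whole reads were planned and not run.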
